A study of Sus scrofa domesticus with 4 samples.

Results

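A set of 10 genes was followed as markers of the uterine epithelium and its secretions in slices of pregnant pig myometrium, the smooth muscle wall of the uterus. The 10 genes were chosen by name: KRT8, KRT18, EPCAM, CDH1, MUC1 and CLDN4 for the epithelial cells themselves, and ACP5, SPP1, SAL1 and FGF7 for what they secrete. A probe counted as belonging to a gene when the identifier printed on the array was a RefSeq mRNA of that gene. Of the 10 genes, 7 had such a probe, with 32 probes among the 43603 non-control probes of the array, and KRT18, MUC1 and FGF7 are not analysed here. Of the 32 probes, 16 passed the filter on dim signal and were tested among 19879 probes in all. The 16 tested probes belonged to 5 genes, SPP1 (NM_214023), ACP5 (NM_214209), KRT8 (NM_001159615), EPCAM (NM_214419) and SAL1 (NM_213814), while CDH1 (NM_001163060) and CLDN4 (NM_001161637) were too dim to be tested and are described by their levels.

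The tissue came from 4 mature gilts, crosses of Large White with Polish Landrace, aged 7 to 8 months, weighing 120 to 130 kg and killed on day 15 or 16 of pregnancy. Slices 3 mm thick, of about 100 mg, were cut from mid-horn myometrium, preincubated for 2 h in culture medium and kept for another 24 h with 10 nM orexin B, a hypothalamic neuropeptide that signals through a pair of G protein-coupled receptors, or with nothing added. In all, 4 arrays of 2 colours were hybridised, each with 1 orexin B-treated and 1 untreated RNA in different dyes, so the single group holds 4 ratios of orexin B over untreated. The 4 arrays come from separate experiments by the labels, which do not tie an array to a named gilt and do not say that both channels of an array came from 1 animal. The dye fields place the treated RNA in Cy5 on arrays 1 and 3 and in Cy3 on arrays 2 and 4. The labelling protocol describes only the former orientation, and all directions here follow the dye fields. Cultures were run in duplicate, and the labels do not say how duplicates were combined. Arrays 2 to 4 shared a slide and array 1 was on another.

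The endometrium borders the myometrium on the inner side of the uterine wall and carries a luminal epithelium from which glands reach down towards the muscle. Keratin 8 builds the intermediate filaments of simple epithelia, EPCAM and E-cadherin (CDH1) join epithelial cells to each other, and claudin 4 seals the tight junctions between them. In the pig, the glands of early pregnancy secrete uteroferrin (ACP5), an iron-carrying acid phosphatase, and the luminal epithelium deposits osteopontin (SPP1), an adhesion protein that binds integrins on the implanting conceptus. Macrophages and osteoclasts are other known sources of both proteins. Salivary lipocalin (SAL1) is a secreted carrier of small hydrophobic molecules.

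Of the genes chosen for the epithelial cells, only KRT8 and EPCAM were bright enough in the muscle slices to be tested. Their levels differed between the slices of the same array and between arrays. The array reader marks a spot as well above background when its signal clearly exceeds the surrounding glass. Among all probes, 48.7% to 54.3% were so marked in the orexin B channels and 37.6% to 58.2% in the untreated channels. Of the 32 epithelial and secretory probes, 16 are repeated readings of 1 transcript, EPCAM, so that gene weighs most in these counts. The orexin B channels had 26, 28, 17 and 30 of the 32 well above background on arrays 1 to 4. The untreated channels had 14, 29, 29 and 30. Array 3 was the lowest orexin B channel for these probes (53.1%), although 51.2% of all its probes were detected there, and array 1 was the lowest untreated channel (43.8%), where detection over all probes was also lowest. No spot of the 32 probes was saturated. The share of epithelial cells and the RNA content per epithelial cell cannot be told apart in such bulk RNA.

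**Figure D1:**
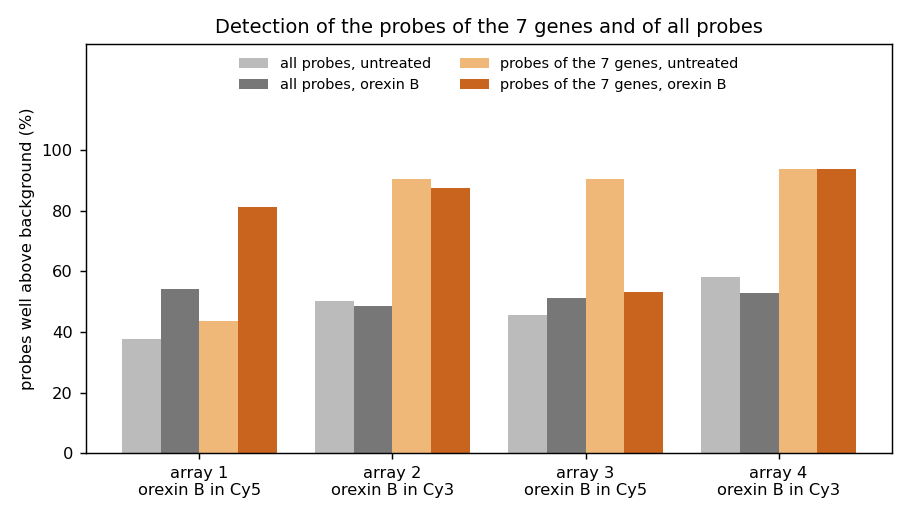
Percentage of probes marked well above background in each channel of the 4 arrays, for all non-control probes (grey) and for the 32 probes of the 7 measured epithelial and secretory genes (orange); light bars are untreated and dark bars orexin B-treated. The orexin B channel of array 3 has 53.1% of the 32 probes detected against 90.6% in the untreated channel of the same array. Of the 32 probes, 16 are of EPCAM.

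EPCAM, the membrane adhesion protein, had the widest spread between channels. On its brightest probe the untreated level, a log2 intensity made comparable between channels, was 8.68, 10.81, 10.27 and 8.63 on arrays 1 to 4. The orexin B level was 8.92, 10.55, 7.58 and 9.75. Both sets overlapped: the highest values of each were on array 2, and the lowest of all 8 was the orexin B channel of array 3. The untreated levels spanned a 4.50-fold range and the orexin B levels a 7.82-fold range.

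The log2 ratio of EPCAM, orexin B over untreated, was 0.24, −0.26, −2.69 and 1.11 on arrays 1 to 4. Array 3 was thus 6.45-fold lower with orexin B and array 4 was 2.16-fold higher, while arrays 1 and 2 lay nearer 0. With each channel scaled to its own median, arrays 1 and 2 were at 0.64 and −1.10. Arrays 3 and 4 kept their signs. The mean log2 ratio was −0.40 ± 0.54 (SE, n = 4), with an adjusted p of 0.881 by limma with Benjamini-Hochberg adjustment over all tested probes. Each SE given here is limma's moderated value, which draws on the spread of all tested probes. The plain SD of the 4 EPCAM ratios was 1.63. Without array 3 the mean turned to 0.36. The mean was −1.23 where the treated RNA was in Cy5 (2 arrays) and 0.43 with the dyes exchanged (2 arrays). Array 1, with the same dyes as array 3, was at 0.24.

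EPCAM was covered by 16 probes, which read 1 transcript in 1 RNA and are therefore repeated readings rather than replicates. All 16 were below 0 on array 3, from −2.76 to −1.38, and all 16 were above 0 on array 4, from 0.43 to 1.25. On array 2 all 16 were slightly below 0, from −0.41 to −0.12, and on array 1 the range was −0.12 to 0.36 with 14 above 0. The opposite signs of arrays 3 and 4 therefore did not rest on a single probe. The 8 probes that were too dim to test were all short of the background mark in the untreated channel of array 1 and in the orexin B channel of array 3.

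Over the 8 tested EPCAM probes the channels could be put in order. The orexin B channel of array 3 was lowest on all 8 probes, 0.91 ± 0.09 log2 units (SD over probes) below the next. The untreated channels of arrays 4 and 1 and the orexin B channel of array 1 followed, and these neighbours differed by no more than their spread over probes, 0.15 ± 0.16 and 0.13 ± 0.14. Above them stood the orexin B channel of array 4, then the untreated channel of array 3, then the orexin B and the untreated channel of array 2, each step in the same order on 8 of 8 probes. With quantile normalization of all 8 channels the lowest untreated channel was array 1 instead of array 4, and both ends of the orexin B order stayed on arrays 2 and 3.

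KRT8, the keratin of simple epithelia, had untreated levels of 8.11, 10.02, 9.47 and 8.39 on arrays 1 to 4, the first of them not well above background. Its orexin B levels were 8.54, 9.37, 7.99 and 9.07. As for EPCAM, array 2 was highest in both channels, array 3 was lowest with orexin B, and the channels overlapped. The log2 ratios were 0.43, −0.65, −1.49 and 0.67, with a mean of −0.26 ± 0.34 (SE, n = 4) and an adjusted p of 0.878 by limma. The mean became 0.15 without array 3. It also turned positive, to 0.18, with the scanner software's own processed signals. Of the other KRT8 probes, the second had the same signs on all 4 arrays, with −0.65 on array 3, and the third was not well above background in any of the 8 channels.

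E-cadherin and claudin 4 were near the detection limit. The brighter CDH1 probe had untreated levels of 7.72, 9.57, 8.62 and 7.86 and orexin B levels of 7.92, 9.18, 7.46 and 8.30. It was not well above background in the untreated channel of array 1 nor in the orexin B channel of array 3. Its log2 ratios, 0.20, −0.39, −1.16 and 0.43, had the signs of EPCAM and KRT8 on every array. The second CDH1 probe was detected in 1 of 8 channels. CLDN4 had untreated levels of 8.02, 8.96, 8.13 and 7.93 and orexin B levels of 7.85, 8.48, 7.64 and 7.92, of which the untreated channel of array 1 and the orexin B channels of arrays 1 and 3 were not well above background. Its ratios lay between −0.48 and −0.01, a narrower range than that of the other epithelial genes, and none was above 0.

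Uteroferrin (ACP5), the secreted gland product, gave untreated levels of 12.56, 11.57, 14.04 and 13.04 and orexin B levels of 12.19, 12.00, 11.80 and 14.14. The highest untreated slice was array 3 and the highest treated slice was array 4, and the ranges of the channels overlapped. Untreated slices alone spanned a 5.54-fold range and treated slices a 5.06-fold range. The log2 ratios were −0.37, 0.43, −2.24 and 1.10, with a mean of −0.27 ± 0.48 (SE, n = 4) and an adjusted p of 0.912 by limma. Array 3 was 4.71-fold lower with orexin B, array 4 was 2.14-fold higher, and the mean without array 3 was 0.39. The mean was −1.30 where the treated RNA was in Cy5 and 0.76 where it was in Cy3. Read as Cy5 over Cy3, ACP5 was below 0 on all 4 arrays, with a mean of −1.03 ± 0.30 (SE, n = 4) and a limma p of 0.012 that became 0.593 after adjustment, the lowest of its adjusted p-values over all alternatives, which reached 1.00. The second tested ACP5 probe gave −0.21, −0.21, −1.66 and 0.85, which differed in sign from the first on array 2. When each channel was scaled to its own median instead, arrays 1 and 2 exchanged signs on the first probe and arrays 3 and 4 kept theirs.

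Osteopontin (SPP1) was near 0 on array 3, where EPCAM, KRT8, CDH1 and ACP5 were at −1.16 or lower. Its untreated levels were 12.08, 11.86, 13.37 and 12.18 and its orexin B levels were 12.72, 12.29, 13.20 and 13.39. The log2 ratios were 0.64, 0.43, −0.16 and 1.21, so treated slices were higher on 3 of 4 arrays, although scaling each channel to its own median turned array 2 to −0.65 and array 3 to 0.49. The mean was 0.53 ± 0.21 (SE, n = 4), a limma p of 0.041 that became 0.631 after adjustment. The mean was 0.30 without array 4. With the treated RNA in Cy5 it averaged 0.24, and in Cy3 0.82. The other 3 SPP1 probes had means of 0.40 to 0.44, and on array 3 the 4 probes ranged from −0.31 to 0.10.

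SAL1, the lipocalin, was lower with orexin B on 4 of 4 arrays, by small amounts. Its untreated levels were 8.04, 9.81, 9.93 and 9.19, the first not well above background, and its orexin B levels were 8.02, 9.11, 9.59 and 8.83. The log2 ratios were −0.02, −0.71, −0.33 and −0.36, with array 1 close to 0. When each channel was scaled to its own median instead, arrays 1 and 3 turned to 0.08. The mean was −0.36 ± 0.14 (SE, n = 4) and the limma p of 0.039 became 0.626 after adjustment. The dimmer SAL1 probe ran the same way on all 4 arrays, from −0.57 to −0.05. Of all tested probes, 16.3% had the same sign on all arrays, a share to set beside each count of 4 of 4 below.

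**Figure D2:**
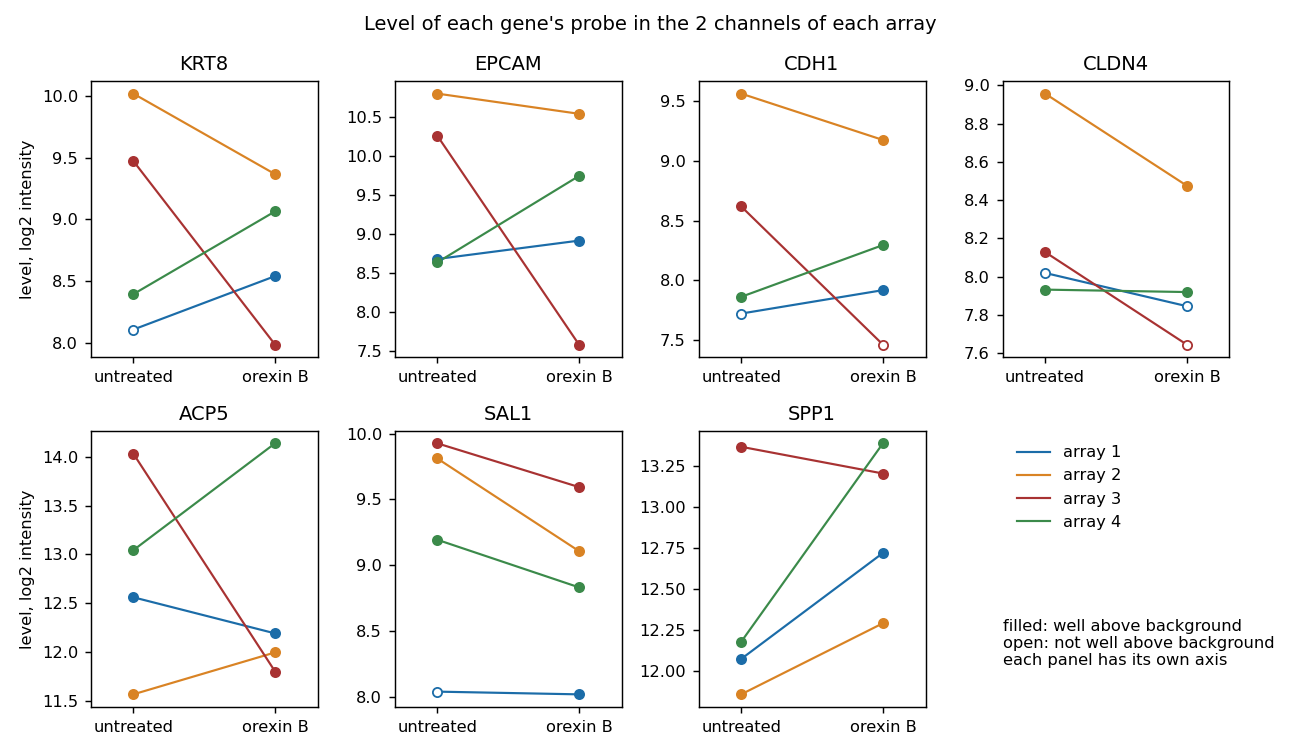
Level of the brightest probe of each of the 7 genes (log2 intensity, loess and Aquantile normalized) in the untreated and the orexin B channel of the 4 arrays; each line joins the channels of 1 array, open points were not well above background, and each panel has its own vertical axis. For KRT8, EPCAM, CDH1 and ACP5 the line of array 3 slopes steeply down and that of array 4 slopes up, while the 4 lines of SAL1 are flat or slope slightly down.

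No probe of the array passed an adjusted p of 0.05 in limma, 0 of 19879 (0%), where the smallest adjusted p was 0.596, so none of the 16 tested epithelial and secretory probes did. At an unadjusted limma p under 0.05, 1534 probes passed. Of these, 856 were higher with orexin B (4.31% of those tested), among them 2 of the 16, both of SPP1. Another 678 were lower (3.41%), among them 1 of the 16, the SAL1 probe. The exact sign-flip permutation test of a single probe over 4 arrays cannot go below a two-sided p of 0.125 and was not used.

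The ratios on single arrays were large beside those of most probes. On array 3, 11 of the 16 tested probes had a log2 ratio of −1 or lower, namely 8 of EPCAM, 2 of ACP5 and 1 of KRT8, against 133 of 19861 probes on the whole array (0.67%). Counting 1 probe a gene, 3 of the 5 genes were that low, against 24 of 1958 named genes (1.23%). On array 4, 5 of the 16 probes were at 1 or higher, 2 each of EPCAM and SPP1 and 1 of ACP5, against 287 of 19858 (1.45%). The 16 probes represent only 5 transcripts, and these counts describe 2 pairs of slices.

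The range of the level over the 4 untreated slices, which no treatment separates, was also wide. It was at least 1 log2 unit for 14 of the 16 tested probes, against 4244 of 19708 tested probes (21.5%), for which the median range was 0.65. Over the 4 treated slices it was at least 1 unit for 16 of 16, against 3356 of 19708 (17%) and a median of 0.52. By gene, the untreated ranges of the brightest probes were 1.50 for SPP1, 1.89 for SAL1, 1.91 for KRT8, 2.17 for EPCAM and 2.47 for ACP5.

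Within the slide that held arrays 2 to 4, the mean log2 ratio was −0.61 for EPCAM, −0.49 for KRT8, −0.24 for ACP5, 0.49 for SPP1 and −0.47 for SAL1. Each had the sign of the mean over all 4 arrays, which contains the same arrays, so the equal signs are no test of the slide. The other slide held array 1 alone and gives no mean of its own.

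**Figure D3:**
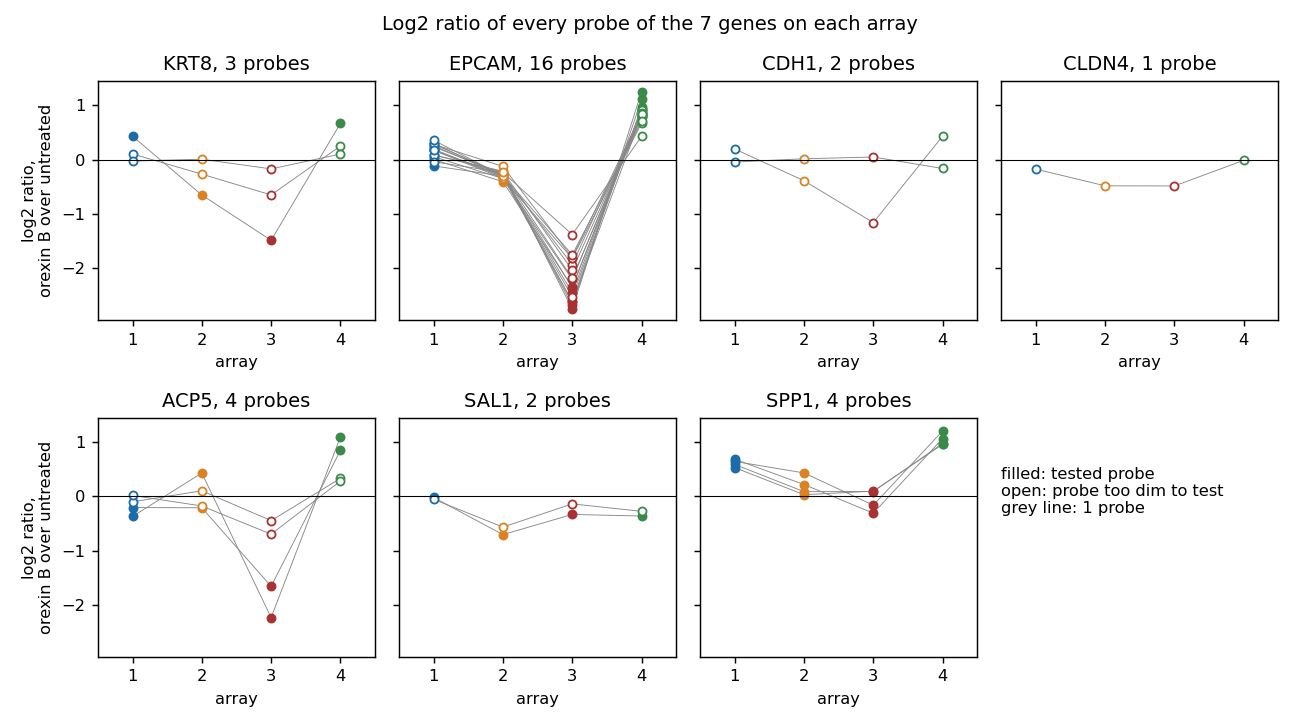
Log2 ratio of orexin B over untreated on each of the 4 arrays for every probe of the 7 genes; filled points are tested probes, open points are probes too dim to test, and a grey line joins the values of 1 probe. All 16 EPCAM probes lie below 0 on array 3 (−2.76 to −1.38) and above 0 on array 4 (0.43 to 1.25), while the 2 SAL1 probes stay between −0.71 and −0.02.

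The median of the tested epithelial cell genes, KRT8 and EPCAM, was 0.33, −0.46, −2.09 and 0.89 on arrays 1 to 4, with a mean of −0.33, beside a median of 0.02 over all tested probes. To see which other genes had such ratios, the 4 ratios of every named gene were set against these 4 values and the mean absolute difference was taken. Over the 1932 genes compared, the median of that difference was 0.95 log2 units, and 8 genes outside the 10 lay within 0.5. KRT8 and EPCAM, which define the profile, differed from each other by 0.56. ACP5 lay 0.49 from it, SPP1 0.86 and SAL1 0.90, so SPP1 and SAL1 were hardly nearer than the median gene.

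Of the 8 closest genes, CLDN3 was the only one whose symbol also stood on a list of epithelial genes used here. The lists are not complete, so absence from them does not mark a gene as non-epithelial. The nearest was TSPAN1, a membrane tetraspanin, with a difference of 0.16 and ratios of 0.33, −0.63, −1.93 and 0.59. CLDN3, a tight junction claudin, followed with 0.25 and ratios of −0.16, −0.35, −2.23 and 0.63. SLPI, a secreted inhibitor of leukocyte proteases, lay at 0.26, with ratios of −0.09, −0.17, −2.28 and 0.73. All 7 SLPI probes were below 0 on array 3, from −3.20 to −2.28, and above 0 on array 4. UABP-2, named for a uteroferrin-associated protein, lay at 0.30, with 0.37, −0.24, −3.00 and 0.85. All 8 were chosen for being near this profile, so their order over the arrays is a description.

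The remaining 4 were LEF1, a transcription factor of the Wnt pathway, at 0.27, NMB, the peptide neuromedin B, at 0.40, and UBD and GBP1, which interferons are known to induce, both at 0.48. LEF1 and NMB reached −1.88 and −1.87 on array 3, and UBD and GBP1 reached −1.02 and −1.16. None of the 8 passed the adjusted threshold, with limma adjusted p-values from 0.785 to 0.893. The likeness rests on 4 arrays, of which array 3 weighs most.

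**Figure D4:**
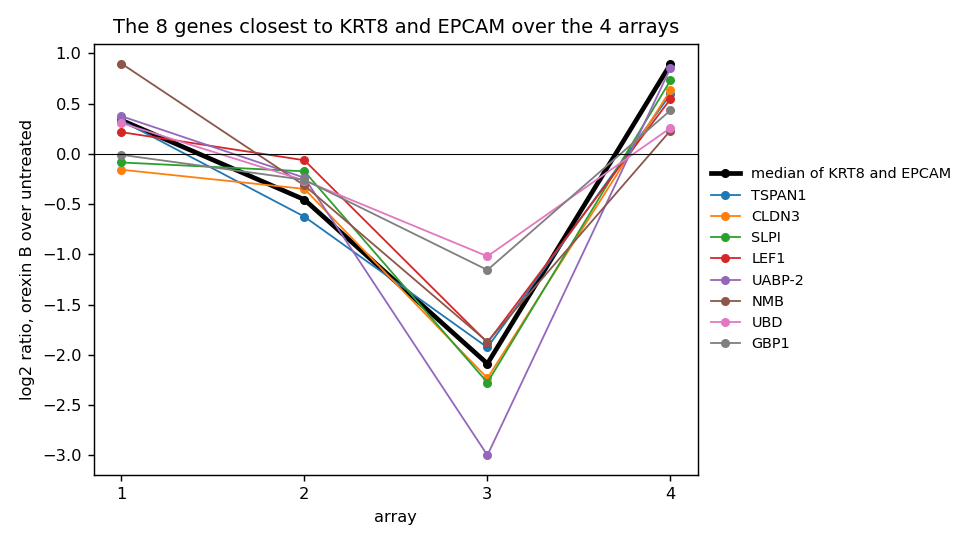
Log2 ratio of orexin B over untreated on arrays 1 to 4 for the median of KRT8 and EPCAM (thick black line) and the 8 other named genes closest to it by mean absolute difference. All 8 genes are lowest on array 3, from −3.00 for UABP-2 to −1.02 for UBD, and above 0 on array 4.

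Further lists held 110 other genes with a part in epithelial junctions, transcription or secretion, of which 50 had a probe and 24 were tested. They include genes also made by other cell types, CTNNB1 among them, so the lists do not mark epithelium alone. None of the 24 passed the adjusted threshold in either direction. A mean above 0 was found for 9 and below 0 for 15, with a median of −0.07. On array 3, 2 of the 24 were at −1 or lower, CLDN3 and RBP4, which is 8.33% of them against the 1.23% of named genes given above. RBP4, the plasma and uterine carrier of retinol, singled out here after its values were seen, had ratios of 0.01, −0.09, −2.99 and 1.39 and a mean of −0.42 ± 0.61 (SE, n = 4). Its 3 probes were all below 0 on array 3, from −2.99 to −0.98, and above 0 on array 4, from 0.47 to 1.39.

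Among the junction genes, 10 of 21 had a probe, 4 were tested and 4 were not well above background anywhere, and the tested median was −0.17. CTNNB1, the catenin that binds cadherins and is also made by other cell types, was below 0 on 4 of 4 arrays, with a mean of −0.29 ± 0.14 (SE, n = 4) and a limma p of 0.070 that became 0.665 after adjustment. PARD6B, a polarity protein, was at 0.07 ± 0.15. Of 14 other keratin and desmosome genes only JUP (plakoglobin) was tested, at 0.04 ± 0.24. Of 21 epithelial transcription and splicing factors 3 were tested, KLF4 at −0.48 ± 0.29, MSX1 at −0.07 ± 0.19 and KLF5 at −0.02 ± 0.12. On array 3 their median was −0.25, where that of KRT8 and EPCAM was −2.09.

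The list of secreted and transport genes of the uterine epithelium was the best covered, with 32 of 54 genes on the array and 16 tested. Of these, 7 were above 0 and 9 below, with a median of −0.08. STC1, the hormone stanniocalcin 1, was above 0 on 4 of 4 arrays with ratios of 0.78, 2.51, 0.79 and 0.52. Its mean was 1.15 ± 0.32 (SE, n = 4), with a limma p of 0.008 that became 0.596 after adjustment. HBEGF, a growth factor of the implantation epithelium, had a mean of 0.52 ± 0.16 and was above 0 on 3 of 4 arrays. LCN2, a lipocalin like SAL1, was below 0 on 4 of 4 arrays with a mean of −0.48 ± 0.19. STC1 and RBP4, both known as secretions of the uterine epithelium, had opposite signs on array 3.

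Osteopontin acts through integrins, and FGF7 through an isoform of FGFR2. Of 11 receptor genes for these ligands, 6 had a probe and 5 were tested, 4 above 0 and 1 below, with a median of 0.08. The values with the smallest p were 0.15 ± 0.20 (SE, n = 4) for ITGB5, 0.07 ± 0.12 for ITGB1 and 0.08 ± 0.13 for FGFR2. ITGAV, which pairs with several β integrins to bind osteopontin, was at −0.08 ± 0.24. The probe of FGFR2 does not tell isoforms apart here. No receptor gene passed the adjusted threshold.

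The slices were labelled myometrium. Of 14 smooth muscle markers 9 had a tested probe, and all 9 were well above background in all 8 channels. Their log2 ratios, unlike those of EPCAM, had array medians of 0.00, −1.13, 0.16 and −1.21, with an overall median of −0.49 and 0 of 9 past the adjusted threshold. The muscle genes with the smallest p were CNN1 (calponin) at −0.61 ± 0.26 (SE, n = 4), MYLK (myosin light chain kinase) at −0.65 ± 0.28 and SMTN (smoothelin) at −0.51 ± 0.26. The 4 tested stromal genes had array medians of −0.02, −0.72, −0.00 and −0.77, and included DCN (decorin) at −0.43 ± 0.13. On array 4 the median of KRT8 and EPCAM was thus above 0 and that of the muscle genes below 0, whereas on array 3 the former was below 0 and the latter near 0. The muscle and stromal medians were near 0 on arrays 1 and 3, with treated RNA in Cy5. They were below 0 on arrays 2 and 4, with it in Cy3. Dye orientation and differences between slices cannot be told apart in that split. The part of tissue makeup in these ratios was not tested.

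Macrophages are a known source of osteopontin, and their markers were read beside it. All 9 tested macrophage genes had a mean above 0, with a median of 0.60, 8 of 9 at an unadjusted p under 0.05 (4.31% of all tested probes were higher at that p) and 0 of 9 past the adjusted threshold. Their array medians were 0.69, 0.18, 0.86 and 0.76, so on array 3, where SPP1 was at −0.16, they were at their highest. AIF1 (0.63 ± 0.14, SE, n = 4) and C1QB (0.98 ± 0.24), a chain of complement C1q, had the smallest p. Of 5 genes of osteoclast-type macrophages, a list that includes ACP5 and SPP1, the other 3 were MMP9 at 0.50 ± 0.20, GPNMB at 0.26 ± 0.16 and CTSK at 0.06 ± 0.30. On array 3 these 3 were at 1.21, 0.71 and 0.22, where ACP5 was at −2.24. Their part in the SPP1 ratio was not tested.

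Other tissues that a slice of the pregnant uterine wall could carry were looked at in the same way. Of 12 genes of the conceptus trophoblast 5 were tested, with a median of 0.49, 4 above 0, and IL1B2, the pig conceptus interleukin 1 beta, at 0.49 ± 0.17 (SE, n = 4). Of 9 mesothelial genes, which would mark the outer surface of the uterus, 2 had a probe and only WT1 was tested, at 0.19 ± 0.14. Of 7 endothelial genes 4 were tested, with a median of 0.31. None of these genes passed the adjusted threshold, and the 5 erythrocyte genes had no matched probe.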

How the data were processed

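Per the labels, total RNA of explants was labelled with Cy3 or Cy5 and 825 ng of each was hybridised together. The deposited scanner files, written by Agilent Feature Extraction (version 10.7.3.1 in their headers), hold linear intensity values, background flags and a log10 ratio of processed Cy5 over Cy3 as the authors deposited them. A series table of log2 ratios was also deposited by the authors; its values lay within 0.01 of the scanner software's log ratio turned to orexin B over untreated, for 100% of probes on each array, with column medians of −0.27, −0.08, −0.20 and −0.09.

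Median spot and background intensities were corrected with normexp (offset 50) and normalized by loess within each array, with control spots at weight 0, in limma 3.58.1 (R 4.3.3). Between 31 and 138 spots an array were marked as outliers and left out. Testing required an unmarked spot on at least 3 arrays and, in 1 of the channels (treated or untreated), a signal well above background on each of the 4 arrays. Ratios were turned by the dye fields and fitted with lmFit and eBayes, two-sided, with Benjamini-Hochberg adjustment at 0.05. Simulated ratios were passed through this fit alone, so the steps before it were not tested on simulated data. Levels are log2 intensities after loess and Aquantile, and were never set between probes. A gene was represented by its brightest tested probe. Probes were named through RefSeq accessions without versions, for 6700 of 43603 probes, of which 6599 had a symbol, giving 1959 tested genes. Each SE of a mean ratio is limma's moderated one, drawn towards the spread of all tested probes, so it can understate the spread of a variable gene. The plain SD of the 4 ratios was 1.63 for EPCAM, 1.44 for ACP5, 1.00 for KRT8, 0.57 for SPP1 and 0.28 for SAL1. The number of arrays limits the precision, and the p-values rest on these moderated values.

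The genes and lists were chosen with earlier results of these data known. The genes named are all 10 chosen genes, up to 3 with the smallest p in each list of at least 3 tested genes, and the 8 named genes closest to KRT8 and EPCAM; LCN2, JUP, WT1, ITGAV, CTSK, RBP4 and the genes of the closing observations were named beyond that rule after their values were seen, and 1 gene under the rule is not reported here. Alternatives covered background, normalization, filters, dye, slide, probe choice and each array left out.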

Additional observations from a re-analysis of the deposited data

Results flagged for a closer look

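In 58 sets of 4 values, 4 had 1 value far from the other 3, where chance alone would give about 2.9. The orexin B level of ACP5 reached 14.14 on array 4, against 11.80 to 12.19 elsewhere. The log2 ratio of STC1 was 2.51 on array 2 and 0.52 to 0.79 elsewhere. The log2 ratio of HBEGF was −0.052 on array 3 and 0.64 to 0.77 elsewhere. The log2 ratio of ITGB1 was 0.34 on array 3 and −0.05 to −0.00 elsewhere.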

How the results depend on the processing

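No probe passed the adjusted threshold in any of 13 alternatives; with the slide as a random block (block correlation −0.26) the smallest adjusted p was 0.078, and in the other alternatives it lay between 0.195 and 1.00. The count at an unadjusted p under 0.05, 1534 as reported, was 177 with median centring in place of loess, 2302 without the filter on dim probes, 2382 with dye as a term, 4280 with the slide block, and 726 (without array 4) to 1922 (without array 3) leaving out 1 array. Median centring moved the split from 856 higher and 678 lower to 172 and 5. Leaving out 1 array gave −0.73 to 0.39 for ACP5, −0.57 to 0.15 for KRT8, −0.90 to 0.36 for EPCAM and −0.74 to 0.26 for the median of KRT8 and EPCAM, each positive only without array 3. SPP1 stayed at 0.30 to 0.76 and SAL1 at −0.47 to −0.24. KRT8 was 0.18 with the processed signals and with the series table. Without turning the dye-swapped arrays SPP1 was −0.29, SAL1 0.18, ACP5 −1.03 and the KRT8 and EPCAM median on array 4 −0.89. That median stayed between −2.92 and −1.32 on array 3. With the arrays turned, it lay between 0.22 and 1.37 on array 1 and between −1.18 and −0.26 on array 2. The SPP1 range over untreated slices was 2.25 with each channel minus its median. Correction on mean spot signals was not run, since that column is not in the files used here. No further pairing was added, because each ratio already pairs a treated with an untreated RNA within an array.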

Other observations

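The 24 named genes at −1 or lower on array 3 were not limited to those on the lists of epithelial genes used here. Beside the 3 epithelial and secretory genes and CLDN3, RBP4, UABP-2, SLPI and TSPAN1, the 24 included several chemokine and inflammatory genes. The latter were picked here after their values were seen and not from a fixed list. Which cells they came from, epithelial or other, was not tested. CXCL9, a chemokine that interferon gamma is known to induce, had log2 ratios of 1.00, 0.83, −2.26 and 0.45 on arrays 1 to 4, and CXCL10 had 0.74, 1.06, −1.11 and 1.09. PTGS2, the inducible prostaglandin synthase, had 1.51, 0.95, −1.23 and 1.32, and S100A8, a protein of neutrophils and monocytes, had 0.17, 2.33, −2.01 and 0.96. These 4 were above 0 on the other 3 arrays. NOS2, the inducible nitric oxide synthase, was at −0.41 on array 1 and −1.20 on array 3 but 0.45 and 0.78 on arrays 2 and 4. None had an adjusted p under 0.05 in limma.

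Of the 24 genes, 21 were above 0 on array 4 (87.5%), where 56.6% of all named tested genes were. On array 1 it was 16 of 24 (66.7%) against 57.3%, and on array 2 it was 11 of 24 (45.8%) against 40.6%. Below 0 on array 4 were CRABP1 at −0.01, C3 at −0.17 and SELP at −0.43.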
